A study of Mus musculus with 8 samples.

Results

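The genes of the mitochondrial respiratory chain and of the ATP synthase were followed by RNA sequencing of mouse bone fractions labelled as osteocytes. Members were the protein-coding genes whose mouse symbols start with Nduf, Sdh and one of the letters a to d, Uqcr, Cox4 to Cox8 or Atp5, together with the protein genes of the mitochondrial genome. They numbered 111 of the 43346 genes counted and comprised 84 nuclear subunits, 14 assembly or associated factors and 13 mitochondrially encoded genes. Usmg5 entered under its RefSeq symbol Atp5md. Ndufa4 and its paralog Ndufa4l2 carry a complex I name, but the Ndufa4 protein is a subunit of complex IV, and both were placed there. Of the 111 members, 108 passed the filter on low counts, and Cox7b2, Cox8b and Cox8c did not.

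The fractions came from the frontal bone (3 libraries) and the parietal bone (2 libraries), which form the calvaria or skull vault, and from the femur, a long bone (3 libraries). All were from C57BL/6 mice aged 12 weeks, and no allele or treatment is named for any group. Libraries carry the numbers 1, 2 and 4 (frontal and femur) or 2 and 4 (parietal), and the purpose stated for the series was to examine the osteocyte transcriptome of these bones. Nothing in the labels says whether libraries came from separate animals or pools, so the p-values rest on variation among libraries that may be technical. Library totals ran from 6259229 to 13461622 gene counts.

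The cell type given for all libraries is osteocytes, but the osteocyte markers were scarce in calvaria. The 10 osteocyte markers summed to 0.0786 to 0.147% of counts in the 5 calvarial libraries and to 2.34 to 4.61% in the 3 femur libraries, and 9 of the 10 were lower in calvaria. Erythroid markers took 7.39 to 11.6% in calvaria and 1.26 to 3.04% in femur (15 of 15 tested were higher in calvaria), and granulocyte markers 6.94 to 9.22% and 1.82 to 4.78% (10 of 14 higher). Proliferation markers took 0.259 to 0.343% in calvaria and 0.0706 to 0.111% in femur (10 of 10 higher), and B cell markers 0.0826 to 0.0996% and 0.022 to 0.0319% (9 of 10 higher). Skeletal muscle markers stayed at 0.00141 to 0.00253% in calvaria and 0.000224 to 0.000587% in femur, with Tnnc2 at 0 in all libraries, and brown adipocyte markers at 0.000375 to 0.000844% and 0.000383 to 0.000605%. The fractions are therefore called by their bone. In such bulk samples fewer cells of a type and less RNA per cell cannot be told apart, and the part that these marker differences have in the results on the respiratory genes was not tested.

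The respiratory chain sits in the inner mitochondrial membrane. Complex I takes electrons from NADH and complex II takes them from succinate, and both pass them to coenzyme Q. Complex III hands them on to cytochrome c, and complex IV passes them to oxygen. Complexes I, III and IV pump protons, and complex V, the ATP synthase, uses the returning protons to make ATP. Complex II is built from nuclear genes alone, whereas the other complexes combine nuclear subunits with core subunits translated inside the mitochondrion. Erythroid precursors need mitochondria for haem synthesis and discard them on maturing, and osteoblasts are known to rely to a large extent on glycolysis.

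The nuclear subunits were higher as a body in calvaria than in femur. Together they took 1.36, 1.4 and 1.47% of gene counts in the frontal libraries and 1.67 and 1.72% in the parietal libraries, against 0.667, 0.728 and 0.796% in the femur libraries. The mean was 1.53 ± 0.161% in calvaria (SD, n = 5) and 0.73 ± 0.0643% in femur (SD, n = 3), and the lowest calvarial library stood above the highest femur library. With the counts of the erythroid and granulocyte markers left out of the totals the means were 1.84 ± 0.186% in calvaria and 0.775 ± 0.0875% in femur. These markers hold no member and took a larger share of every calvarial library than of any femur library. Leaving them out therefore had to widen the gap, and the part of such cells was not tested. Over all gene counts, calvaria also stood above femur for the nuclear subunits of each complex, without overlap. The means ran from 0.518 ± 0.0409% in calvaria and 0.302 ± 0.0165% in femur for complex V to 0.0814 ± 0.00516% and 0.0392 ± 0.00461% for complex II.

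**Figure D1:**
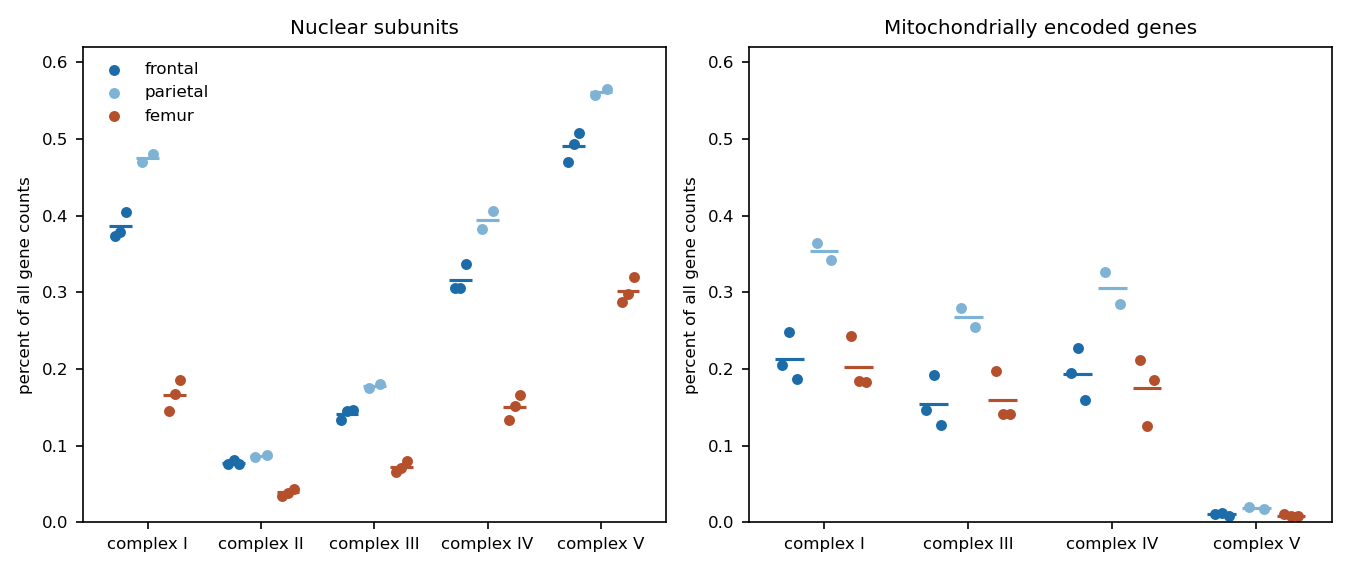
Percent of all gene counts taken by nuclear subunits (left) and mitochondrially encoded genes (right) of each complex. Points are libraries (3 frontal, 2 parietal, 3 femur) and horizontal lines are means. For nuclear subunits of all 5 complexes the calvarial points lie above the femur points, while for mitochondrially encoded genes the frontal and femur points overlap and the parietal points lie above both.

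Gene by gene, counts were tested with edgeR's quasi-likelihood test in one fit over 15511 genes, with p-values adjusted by Benjamini-Hochberg over all of them and a gene called at an adjusted p under 0.05. Of the 81 nuclear subunits tested, 74 were higher in calvaria and 2 were lower, where 61.0% of all genes tested were called, 29.6% higher and 31.4% lower. The median log2 fold change of the nuclear subunits was 1.2, against 0.01 over all genes tested. For 75 of the 84 nuclear subunits every calvarial library stood above every femur library, as was the case for 26.0% of all genes tested, and for 2 every calvarial library stood below, as for 27.5% of all genes. Of the 108 members tested, 106 reached the low-count filter's minimum of 1.09 CPM (counts scaled to a common library total) in at least 2 libraries of calvaria and of femur alike. Cox7a1 reached it in calvaria only and Ndufa4l2 in femur only, so that these 2 had to differ. They are included in the 74 higher and the 2 lower.

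**Figure D2:**
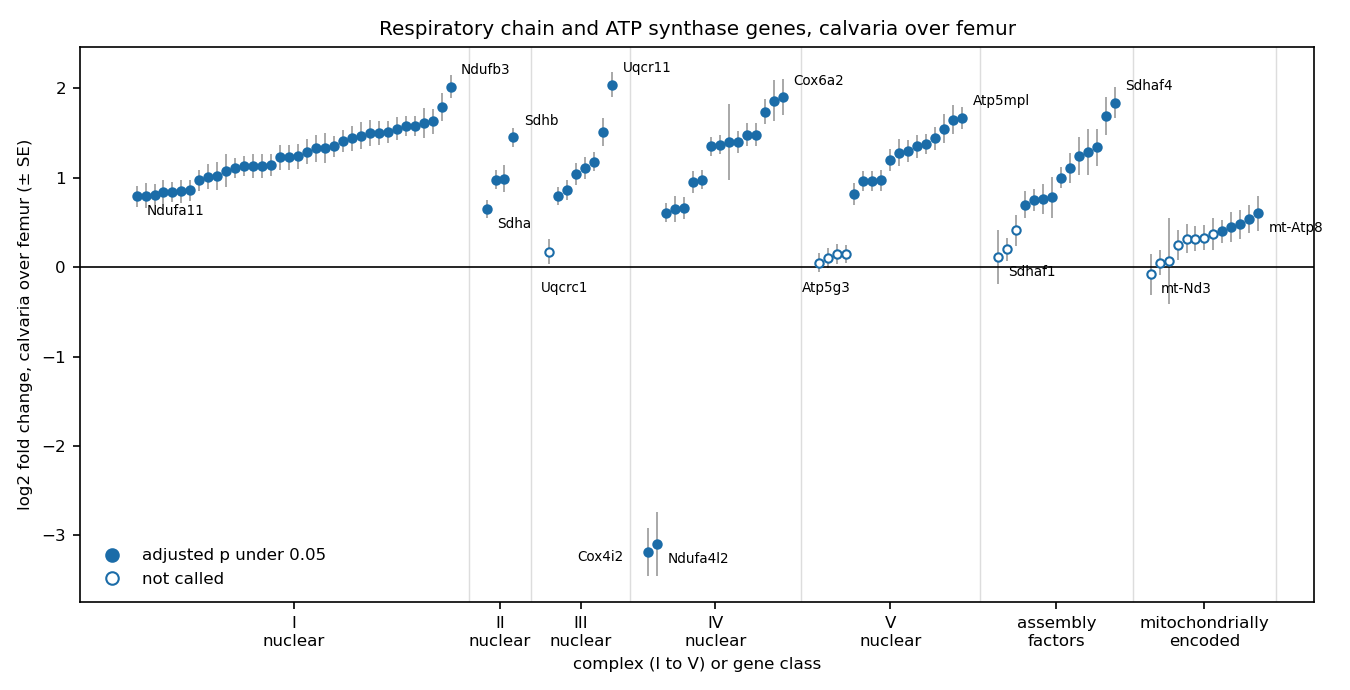
log2 fold change, calvaria over femur, with its SE, for each of the 108 members tested, sorted within complexes I to V (nuclear subunits), assembly factors and mitochondrially encoded genes. Filled points were called at an adjusted p under 0.05 and open points were not. All 36 nuclear subunits of complex I lie between 0.79 and 2.02, Cox4i2 and Ndufa4l2 lie near -3, and the mitochondrially encoded genes lie between -0.08 and 0.6.

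Complex I, the NADH dehydrogenase, moved without exception among its nuclear subunits. All 36 were higher in calvaria, with a median log2 fold change of 1.24 and a range of 0.79 to 2.02. The 7 core subunits, which carry the flavin and the iron-sulphur clusters or lie beside them, had a median of 0.86, and the 29 accessory subunits, which surround the core, had a median of 1.29. Ndufb3, an accessory subunit of the membrane arm (chromosome 1, 58586384 to 58595964, GRCm38), had 103, 98.1 and 109 CPM in the frontal libraries and 132 and 141 CPM in the parietal libraries, against 24.6, 30.7 and 32.2 CPM in the femur libraries. All 5 calvarial values lay above the femur values, and both parietal values lay above all frontal ones. Its log2 fold change, calvaria over femur, was 2.02 ± 0.13 (SE, adjusted p = 2.36e-07), the largest of complex I.

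Ndufc1, a small accessory subunit of the membrane arm (chromosome 3, 51404677 to 51408988), had 86.8, 82.6 and 105 CPM in frontal and 118 and 128 CPM in parietal libraries, against 25.8, 28 and 37.8 CPM in femur libraries, a log2 fold change of 1.79 ± 0.16 (adjusted p = 2.2e-06). The smallest changes of the complex were those of Ndufa11 and Ndufb6, accessory subunits of the membrane arm. Ndufa11 had 89.2, 88.7 and 104 CPM in frontal and 117 and 97.1 CPM in parietal libraries, against 55.2, 61.9 and 56.8 CPM in femur libraries, and its log2 fold change was 0.79 ± 0.12 (adjusted p = 0.000148). Ndufb6 changed by 0.8 ± 0.14 (adjusted p = 0.000417), but its value was -0.06 (adjusted p = 0.723) once the trend of fold change with transcript length and GC content was removed, and 36% of its 37-base stretches also occur in the overlapping gene Smim27. The call of Ndufa1, another accessory subunit, also ended after removal of that trend (-0.08, adjusted p = 0.562). Among the core subunits, Ndufv2, which holds an iron-sulphur cluster of the NADH-binding module, changed by 1.58 ± 0.11.

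Complex II, the succinate dehydrogenase, was higher in all 4 of its subunits, with a median log2 fold change of 0.98. Sdhb, the iron-sulphur subunit (chromosome 4, 140961203 to 140979193), had 175, 185 and 189 CPM in frontal and 252 and 242 CPM in parietal libraries, against 72, 75.5 and 86.2 CPM in femur libraries. The groups did not overlap, and the log2 fold change was 1.45 ± 0.11 (adjusted p = 9.2e-07). Sdha, the flavoprotein that oxidises succinate (chromosome 13, 74322254 to 74350280), had 252, 261 and 250 CPM in frontal and 256 and 260 CPM in parietal libraries, against 149, 165 and 174 CPM in femur libraries, a log2 fold change of 0.65 ± 0.1 (adjusted p = 0.000208). Unlike the values of Sdhb, those of Sdha lay close together over all 5 calvarial libraries. The membrane anchors Sdhc and Sdhd changed by 0.99 ± 0.15 and 0.98 ± 0.11.

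Complex III, the cytochrome c reductase, was higher in 7 of its 8 members, with a median of 1.07. Uqcr11, a small supporting subunit (chromosome 10, 80402997 to 80406830), showed the largest rise of all 108 members tested. It had 142, 134 and 144 CPM in frontal and 191 and 191 CPM in parietal libraries, against 31.8, 40 and 46.7 CPM in femur libraries, a log2 fold change of 2.04 ± 0.14 (adjusted p = 3.72e-07) or 4.12-fold. Uqcr10, another small subunit, changed by 1.51 ± 0.16, and Uqcrc2, one of the pair of large supporting subunits, by 1.18 ± 0.11.

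The partner of Uqcrc2, Uqcrc1 (chromosome 9, 108936633 to 108949623), was the member that was not called. It had 175, 170 and 148 CPM in frontal and 143 and 114 CPM in parietal libraries, against 114, 114 and 159 CPM in femur libraries. The groups overlapped, since the highest femur library exceeded 3 calvarial ones, and the log2 fold change was 0.17 ± 0.14 (adjusted p = 0.319). It was called when femur library 4 was left out (0.35, adjusted p = 0.0416). Removal of the length and GC trend also gave a call (0.36, adjusted p = 0.0304). Uqcrfs1, the Rieske iron-sulphur protein, and Uqcrh, the hinge protein that binds cytochrome c1, changed by 0.8 ± 0.1 and 0.86 ± 0.11. Both calls ended after removal of the length and GC trend, at 0.23 (adjusted p = 0.0815) for Uqcrfs1 and 0.19 (adjusted p = 0.108) for Uqcrh. The call of Uqcrb, a small supporting subunit, ended as well, at 0.06 (adjusted p = 0.639).

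Complex IV, the cytochrome c oxidase, held the only falls. Its 11 subunits that most cells use were all higher, with a median log2 fold change of 1.35. The call of Cox5a, one of them, ended after removal of the length and GC trend (-0.06, adjusted p = 0.742). Ndufa4 (chromosome 6, 11900292 to 11907497) had 269, 299 and 364 CPM in frontal and 448 and 473 CPM in parietal libraries, against 99.2, 109 and 133 CPM in femur libraries, a log2 fold change of 1.74 ± 0.14 (adjusted p = 1.55e-06). Cox4i1, the common isoform of the largest nuclear subunit (chromosome 8, 120668222 to 120674207), had 390, 334 and 381 CPM in frontal and 420 and 386 CPM in parietal libraries, against 234, 245 and 277 CPM in femur libraries. No library of one group overlapped the other, and its log2 fold change was 0.61 ± 0.11 (adjusted p = 0.000612), the smallest among the common subunits. Cox6b1, which binds cytochrome c from the intermembrane side, changed by 1.48 ± 0.13 and Cox8a, a small membrane subunit, by 0.95 ± 0.12.

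The other 5 genes of complex IV that passed the filter encode isoforms with a restricted range of tissues, and they split. Cox4i2, a form induced by low oxygen and abundant in lung (chromosome 2, 152754173 to 152765037), had 1.2, 2.2 and 1.97 CPM in frontal and 1.61 and 3.78 CPM in parietal libraries, against 17.7, 19.1 and 23 CPM in femur libraries. Every femur library exceeded every calvarial one, with a log2 fold change of -3.19 ± 0.27 (adjusted p = 1.71e-06). Ndufa4l2, a paralog of Ndufa4 that is induced by hypoxia-inducible factor (chromosome 10, 127514967 to 127517154), had 0.837, 0.86 and 0.562 CPM in frontal and 0.917 and 0.679 CPM in parietal libraries, against 5.16, 4.44 and 10.9 CPM in femur libraries. Its log2 fold change was -3.1 ± 0.36 (adjusted p = 2.01e-05). Cox4i2 was lower in calvaria under all 18 alternative settings tried. So was Ndufa4l2, but it reached the low-count minimum in femur only and had to differ. Its p-value and its calls under these settings therefore give no support.

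The other 3 of these isoforms were higher in calvaria. Cox6a2, the form of heart and skeletal muscle (chromosome 7, 128205435 to 128206387), had 11, 9.66 and 10.5 CPM in frontal and 11.3 and 12.9 CPM in parietal libraries, against 2.58, 2.93 and 3.38 CPM in femur libraries, a log2 fold change of 1.9 ± 0.2 (adjusted p = 9.82e-06). Cox6b2, known from testis (chromosome 7, 4751792 to 4753094), had 33.2, 18.8 and 28.8 CPM in frontal and 16.3 and 15.5 CPM in parietal libraries, against 4.64, 5.38 and 6.88 CPM in femur libraries, and changed by 1.86 ± 0.23. Cox7a1, another heart and muscle form, was called at 1.4 ± 0.42 (adjusted p = 0.0117). It stood at only 0.837 to 2.52 CPM in calvaria and 0.516 to 0.7 CPM in femur. Since it reached the low-count minimum in calvaria only, it had to differ, and its p-value gives no support. Its call ended after removal of the length and GC trend (0.87, adjusted p = 0.0967). Of the 10 skeletal muscle markers, Mylpf was higher in calvaria (means of 14.3 CPM in calvaria and 1.62 CPM in femur) and carried most of the sum given above. Acta1 was at 0.903 and 0.914 CPM, the other 8 averaged under 1 CPM in both bones, and their part in these values was not tested. Cox7b2, Cox8b and Cox8c, known from testis or muscle, had 9, 11 and 2 counts over all 8 libraries.

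Set against its common partner, each isoform gave a share that does not depend on the scaling of libraries. Cox4i2 made up 0.564 ± 0.262% of the Cox4i1 and Cox4i2 counts in calvaria (SD, n = 5) and 7.3 ± 0.32% in femur (SD, n = 3). Ndufa4l2 made up 0.22 ± 0.0759% of the Ndufa4 and Ndufa4l2 counts in calvaria and 5.48 ± 1.88% in femur. Cox6a2 made up 3.2 ± 0.303% of the Cox6a1 and Cox6a2 counts in calvaria and 1.37 ± 0.098% in femur, so that its share was higher in every calvarial library. Cox6b2 made up 7.52 ± 2.32% of its pair in frontal bone (SD, n = 3) and 3.31 ± 0.115% in parietal bone (SD, n = 2), with 3.84 ± 0.48% in femur. Cox7a1 did not separate the bones by this measure, at 0.419 ± 0.0962% of the Cox7a1 and Cox7a2 counts in calvaria and 0.414 ± 0.0621% in femur.

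**Figure D3:**
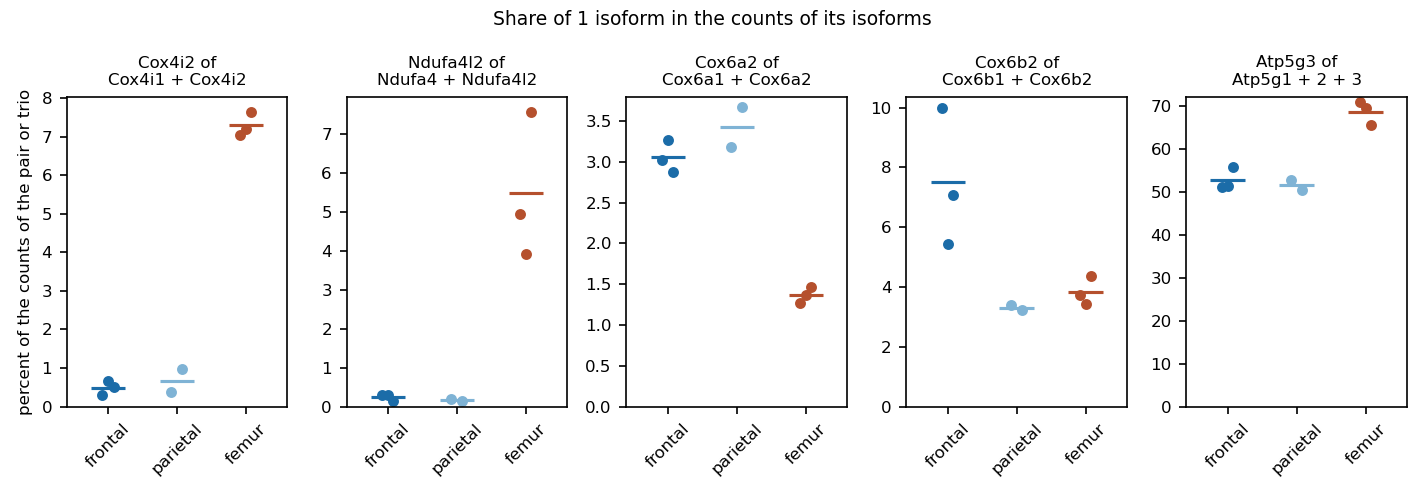
Percent of the summed counts of an isoform pair (or trio for the Atp5g genes) taken by 1 isoform, in 3 frontal, 2 parietal and 3 femur libraries. Points are libraries and lines are means, each axis starts at 0 and the axes differ in range. Cox4i2, Ndufa4l2 and Atp5g3 took a smaller share in calvaria than in femur, Cox6a2 took a larger one, and Cox6b2 was highest in the frontal libraries.

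Complex V, the ATP synthase, was higher in 13 of its 17 nuclear subunits and did not move as a unit. The catalytic F1 head, which protrudes into the matrix, held 3 of the 4 subunits that were not called, and the c ring held the other. Atp5b, its catalytic beta subunit (chromosome 10, 128083273 to 128090391), had 1100, 1080 and 1160 CPM in frontal and 1060 and 952 CPM in parietal libraries, against 992, 959 and 1010 CPM in femur libraries, and overlapped between the groups. Its log2 fold change was 0.1 ± 0.11 (adjusted p = 0.445). Atp5a1, the alpha subunit, had 541, 569 and 519 CPM in frontal and 619 and 519 CPM in parietal libraries, against 533, 453 and 515 CPM in femur libraries (0.15 ± 0.11, adjusted p = 0.269). Atp5d, the delta subunit of the central stalk, changed by 0.15 ± 0.1 (adjusted p = 0.222), but by 0.53 (adjusted p = 0.0012) after removal of the length and GC trend. With upper-quartile scaling, which moved the median of all genes to 0.19, Atp5a1, Atp5b and Atp5d were called at 0.32, 0.27 and 0.33.

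The remaining head and central stalk subunits, Atp5c1 (gamma) and Atp5e (epsilon), were higher by 1.35 ± 0.13 and 1.55 ± 0.16. All 4 peripheral stalk subunits were higher (median 1.25), as were all 5 small membrane subunits (median 1.38), which lie around the rotor. Atp5mpl, a small membrane subunit (chromosome 12, 111961375 to 111966977), had 147, 149 and 188 CPM in frontal and 219 and 237 CPM in parietal libraries, against 60.5, 59.8 and 60.4 CPM in femur libraries. The femur values were nearly equal and lay below all calvarial ones, and the log2 fold change was 1.67 ± 0.12 (adjusted p = 7.08e-07). Atp5k, the e subunit that joins ATP synthase dimers, changed by 1.65 ± 0.16, and at the lower end Usmg5, another dimer subunit, by 0.82 ± 0.12, Atp5f1, subunit b of the peripheral stalk, by 0.96 ± 0.11, and Atp5l, subunit g, by 0.96 ± 0.11.

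The rotor ring of the synthase is made of c subunits, for which 3 genes encode the same mature protein with different targeting sequences. Atp5g3 (chromosome 2, 73908447 to 73911326) had 193, 179 and 229 CPM in frontal and 237 and 224 CPM in parietal libraries, against 210, 213 and 200 CPM in femur libraries, and was not called (0.05 ± 0.11, adjusted p = 0.743). After removal of the length and GC trend it was called lower in calvaria (-0.34, adjusted p = 0.00999). Atp5g1 and Atp5g2 were higher by 0.97 ± 0.12 and 1.28 ± 0.15. As a share of the summed counts of these 3 genes, Atp5g3 took 52.4 ± 2.11% in calvaria and 68.7 ± 2.85% in femur, Atp5g1 took 36.1 ± 0.813% and 24.8 ± 2.33%, and Atp5g2 took 11.5 ± 1.84% and 6.48 ± 0.535%.

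Assembly and associated factors were more modest. Of the 14, 11 were higher in calvaria and none was lower, where 29.6% of all genes were called higher and 31.4% lower. Their median log2 fold change was 0.89. Sdhaf4, which helps to assemble the flavoprotein with Sdhb (chromosome 1, 23995939 to 24005656), had 18.5, 16.2 and 18.3 CPM in frontal and 26.6 and 27.6 CPM in parietal libraries, against 6.71, 5 and 6.77 CPM in femur libraries, a log2 fold change of 1.84 ± 0.17 (adjusted p = 4.11e-06). Atp5s, called coupling factor B, was higher by 1.69 ± 0.21. At the lower end stood Ndufaf7, a methyltransferase that modifies a complex I core subunit, with 0.7 ± 0.15, and Cox7a2l, classed here with complexes III and IV, with 0.75 ± 0.12. The Cox7a2l call ended after removal of the length and GC trend (0.25, adjusted p = 0.0808). Sdhaf1 (0.11, adjusted p = 0.764), Ndufaf4 (0.2, adjusted p = 0.209) and Ndufaf2 (0.41, adjusted p = 0.055) were not called. Sdhaf1 and Ndufaf2 share 69% and 81% of their 37-base stretches with an overlapping gene, so their counts are uncertain.

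Each calvarial bone was also set against femur on its own, with the same femur libraries in both comparisons. In frontal bone 73 of the 81 nuclear subunits tested were higher and 2 lower, where 55.7% of all genes were called, 27.2% higher and 28.5% lower, and the median log2 fold change was 1.01. In parietal bone 74 were higher and 2 lower, where again 55.7% of all genes were called, 27.1% higher and 28.6% lower, with a median of 1.42. By complex the medians in frontal bone were 1.07 for complex I, 0.91 for II, 0.82 for III, 0.96 for IV and 1.01 for V. In parietal bone they were 1.51 for complex I, 1.06 for II, 1.33 for III, 1.54 for IV and 1.39 for V. Of the 14 assembly factors, 10 were higher in frontal bone (median 0.78) and 12 in parietal bone (median 1.09).

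Frontal and parietal bone were then compared directly. Of the 81 nuclear subunits, 18 were lower in frontal than in parietal bone and none was higher, where 7.21% of all genes were called, 3.91% higher and 3.29% lower. The median log2 fold change, frontal over parietal, was -0.41, and -0.02 over all genes. This median, too, varied with exon length. Over all genes it was -0.39 under 1000 bases and -0.17 from 1000 to 2000 bases. The nuclear subunits had -0.47 and -0.41 in these ranges. For 58 of the 84 nuclear subunits every frontal library stood below both parietal libraries, and for 4 above, as was the case for 25.6% and 21.9% of all genes tested. The calls fell on 8 subunits of complex I, 3 of III, 4 of IV and 3 of V, and on none of the 4 of complex II. None of these 18 calls held under all 18 alternative settings. Leaving out frontal library 1, parietal library 2, parietal library 4 or femur library 2 left 0 calls among the nuclear subunits and 0 among all genes, and 3 nuclear subunits were called lower after removal of the length and GC trend, where 0.361% of all genes were called lower and 0.290% higher.

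The clearest of them was Cox6c, a small membrane subunit of complex IV (chromosome 15, 35925886 to 35938246), with 332, 345 and 368 CPM in frontal and 572 and 573 CPM in parietal libraries, a log2 fold change of -0.72 ± 0.12 (adjusted p = 0.0272). Ndufc2, an accessory subunit of complex I, had 103, 110 and 116 CPM in frontal and 177 and 175 CPM in parietal libraries (-0.68 ± 0.13, adjusted p = 0.0281). Usmg5 had 167, 190 and 224 CPM in frontal and 316 and 347 CPM in parietal libraries (-0.78 ± 0.15, adjusted p = 0.0281). In all 3 the frontal values lay below the parietal ones. The membrane subunits of the synthase Atp5l (-0.61) and Atp5j2 (-0.63), the complex I subunits Ndufv2 (-0.6), Ndufa2 (-0.57) and Ndufa6 (-0.62), and Uqcrc2 (-0.56) and Uqcrh (-0.58) of complex III followed. No assembly factor was called by edgeR between frontal and parietal bone. At an unadjusted p under 0.05, 8 of 14 were lower in frontal bone, a count that was not made over all genes. DESeq2 and limma-voom called 4 and 3 assembly factors, where they called 14.3% and 10.2% of all genes in either direction. By library, erythroid markers took 7.68 to 11.6% in frontal and 7.39 to 8.02% in parietal bone, and granulocyte markers 6.94 to 8.33% and 8.34 to 9.22%. Osteocyte markers took 0.0786 to 0.126% and 0.134 to 0.147%, proliferation markers 0.31 to 0.343% and 0.259 to 0.273%, and B cell markers 0.0862 to 0.0996% and 0.0826 to 0.0961%. The part of these in the difference was not tested.

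Nuclear subunits are short genes, and in these libraries fold change varied with exon length. Their median exon length was 1559.5 bases, against 4011 bases over all genes tested. Over all genes, the median log2 fold change, calvaria over femur, was 0.66 for genes under 1000 bases, 0.43 from 1000 to 2000 bases, 0.22 from 2000 to 3000 bases, -0.04 from 3000 to 5000 bases, -0.27 from 5000 to 10000 bases and -0.45 above 10000 bases. The nuclear subunits had medians of 1.31, 1.35, 1.01, 0.99 and 1.02 in the first 5 of these ranges, and 19 of 20, 29 of 31, 10 of 11, 12 of 15 and 4 of 4 were higher. The share of all genes called higher in the same ranges was 44.8, 42.8, 36.7, 28.2 and 22%. With a smooth trend on length and GC content removed, 69 nuclear subunits were higher and 3 lower in calvaria, with a median of 0.84. Of the 14 assembly factors, 8 were then higher (median 0.5). With that trend removed, 28.1% of all genes were called higher and 30.0% lower.

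**Figure D4:**
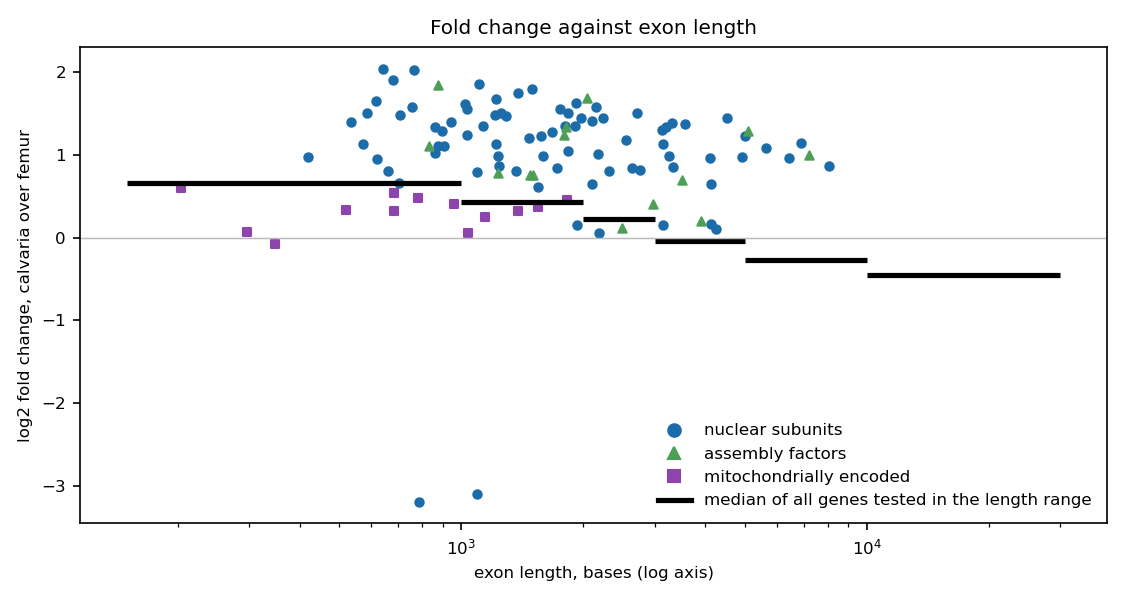
log2 fold change, calvaria over femur, against exon length in bases on a log axis for nuclear subunits (circles), assembly factors (triangles) and mitochondrially encoded genes (squares). Horizontal black lines are the medians of all genes tested in each length range, from 0.66 under 1000 bases to -0.45 above 10000 bases. Most nuclear subunits lie above the line of their range, while 12 of the 13 mitochondrially encoded genes lie below the line of theirs.

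Many respiratory genes have processed copies or overlapping neighbours, which limits what the counts can separate. Of the 84 nuclear subunits, 26 share over 10% of their 37-base stretches, the length of a read, with another annotated gene. All 26 were higher in calvaria (median 1.21). Among the 55 tested subunits with at most 10% shared, 48 were higher and 2 lower (median 1.13).

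Promoters of the members were read from RefSeq (GRCm38.p6), which gave a window from 250 bases before to 50 bases after the start for 81 members, 68 of them nuclear subunits. Nuclear respiratory factor 1, the GABP factor of the ETS family and YY1 are known to bind promoters of respiratory genes. Searched on both strands, an NRF1 pattern, GCGC followed by any 2 bases and GCGC again, occurred in 18 of the 68 (26.5%) and in 6.43% of all 27025 promoters of the same length. The GABP motif CCGGAAG occurred in 16 (23.5%) and in 9.12% of all promoters, and the YY1 motif AAGATGGCG in 6 (8.82%) and in 1.49%. A match describes the letters only. Both called and uncalled members had promoters with no match. To show this, the promoters of 5 members that were higher in calvaria, 3 with a match and 2 without, and of Atp5b, which was not called, are printed 5′ to 3′ on the strand of the gene, with motif matches in capitals.
Uqcr11, chr10:80406772-80407071, minus strand, 1 GABP motif: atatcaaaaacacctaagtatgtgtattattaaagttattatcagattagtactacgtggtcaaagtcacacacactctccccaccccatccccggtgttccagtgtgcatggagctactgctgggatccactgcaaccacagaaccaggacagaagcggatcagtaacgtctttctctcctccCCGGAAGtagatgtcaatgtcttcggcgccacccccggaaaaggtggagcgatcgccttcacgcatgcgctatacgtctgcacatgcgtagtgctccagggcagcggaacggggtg
Ndufc1, chr3:51408906-51409205, minus strand, 1 YY1 motif: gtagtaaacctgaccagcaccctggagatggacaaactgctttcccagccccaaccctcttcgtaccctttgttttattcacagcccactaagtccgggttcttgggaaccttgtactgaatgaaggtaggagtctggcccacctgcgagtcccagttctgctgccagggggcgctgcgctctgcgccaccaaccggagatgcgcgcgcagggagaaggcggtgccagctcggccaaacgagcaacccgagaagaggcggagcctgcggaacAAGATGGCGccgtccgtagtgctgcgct
Sdhb, chr4:140961021-140961320, plus strand, 1 GABP motif: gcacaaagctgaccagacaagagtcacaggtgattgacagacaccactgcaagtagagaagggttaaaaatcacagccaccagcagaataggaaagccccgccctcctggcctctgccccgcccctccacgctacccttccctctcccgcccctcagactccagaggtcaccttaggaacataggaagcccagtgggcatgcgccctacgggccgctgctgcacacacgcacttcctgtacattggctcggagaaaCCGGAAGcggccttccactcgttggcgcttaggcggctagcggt
Ndufb3, chr1:58586147-58586446, plus strand, no match: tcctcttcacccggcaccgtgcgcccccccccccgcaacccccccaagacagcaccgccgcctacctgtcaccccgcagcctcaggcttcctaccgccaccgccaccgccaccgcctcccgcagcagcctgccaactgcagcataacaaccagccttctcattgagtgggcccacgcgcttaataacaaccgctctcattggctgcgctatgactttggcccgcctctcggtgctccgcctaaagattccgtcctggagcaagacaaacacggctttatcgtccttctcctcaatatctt
Ndufc2, chr7:97399753-97400052, plus strand, no match: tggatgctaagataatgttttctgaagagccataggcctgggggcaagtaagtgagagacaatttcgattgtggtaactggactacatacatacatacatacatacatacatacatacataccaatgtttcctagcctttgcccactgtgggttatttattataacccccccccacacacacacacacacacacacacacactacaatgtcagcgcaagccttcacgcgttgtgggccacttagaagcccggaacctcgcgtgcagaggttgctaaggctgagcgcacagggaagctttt
Atp5b, chr10:128083057-128083356, plus strand, no match to any of these motifs: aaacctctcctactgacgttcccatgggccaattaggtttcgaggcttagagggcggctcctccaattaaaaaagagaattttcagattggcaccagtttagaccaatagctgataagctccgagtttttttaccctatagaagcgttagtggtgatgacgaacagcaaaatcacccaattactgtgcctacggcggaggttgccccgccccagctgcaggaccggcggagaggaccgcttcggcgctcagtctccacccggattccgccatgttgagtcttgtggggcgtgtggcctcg

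In frontal bone against femur the mitochondrially encoded genes did not follow the nuclear ones. In parietal bone, as counted, most were higher than in femur, as the nuclear ones were. Together the mitochondrially encoded genes took 0.558, 0.68 and 0.482% of counts in the frontal libraries and 0.992 and 0.899% in the parietal libraries. In the femur libraries they took 0.664, 0.459 and 0.518%. The frontal range overlapped the femur range, and both parietal libraries stood above all others. Per count of a nuclear subunit there were 0.468 ± 0.103 mitochondrially encoded counts in calvaria (SD, n = 5) and 0.759 ± 0.205 in femur (SD, n = 3). These ratios ran from 0.327 to 0.593 in calvaria and from 0.631 to 0.995 in femur, and did not overlap. For none of the 13 genes did all calvarial libraries stand apart from all femur libraries.

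Of these 13 genes, 5 were higher in calvaria than in femur and none was lower, with a median log2 fold change of 0.33. The share of higher calls is near that of all genes (29.6%). After removal of the length and GC trend 12 were lower and none higher, with a median of -0.64. Of all genes, 30.0% were then called lower and 28.1% higher. The 13 genes had a median GC content of 37.1% and a median exon length of 784 bases. Over all genes tested these medians were 49.4% and 4011 bases. How well the trend is estimated for genes so short and so low in GC was not tested. The 5 called were mt-Atp8 (0.6 ± 0.2, adjusted p = 0.0189) and mt-Atp6 (0.54 ± 0.16, adjusted p = 0.0122), the synthase subunits of the mitochondrial genome, mt-Co3 of complex IV (0.48 ± 0.16, adjusted p = 0.0201), and mt-Nd5 (0.45 ± 0.17, adjusted p = 0.0345) and mt-Nd1 (0.4 ± 0.13, adjusted p = 0.0207) of complex I. The call of each of the 5 was lost without femur library 2 and without femur library 4, while 1 gene was called without parietal library 2, 2 without parietal library 4 and 10 without femur library 1. The genes not called were mt-Co1 (0.37), the catalytic core of complex IV, mt-Co2 (0.32), mt-Cytb (0.25), cytochrome b of complex III, and the complex I genes mt-Nd6 (0.33), mt-Nd4 (0.32), mt-Nd4l (0.07), mt-Nd2 (0.05) and mt-Nd3 (-0.08).

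The 2 calvarial bones differed here. In frontal bone edgeR, DESeq2 and limma-voom called 0 of the 13 against femur (log2 fold changes from -0.59 to 0.13, with 1 lower at an unadjusted p under 0.05). By edgeR 27.2% of all genes were called higher there and 28.5% lower. In parietal bone 11 of the 13 were higher (0.38 to 1.07, with mt-Nd3 and mt-Nd4l not called), where 27.1% of all genes were called higher and 28.6% lower. After removal of the length and GC trend 13 were lower in frontal bone, where 28.3% of all genes were called lower and 26.9% higher. In parietal bone 7 were then lower, where 26.2% of all genes were called lower and 24.7% higher. Without parietal library 2 the parietal count was 4. In the direct comparison 10 of the 13 were lower in frontal than in parietal bone, where 3.29% of all genes were called lower and 3.91% higher. The median was -0.87, and none of the 13 held its call under all 18 alternative settings. The count was 0 without frontal library 1, frontal library 4, parietal library 2, parietal library 4 or femur library 2. After removal of the length and GC trend none was called and the median was -0.17. For all 13 genes every frontal library stood below both parietal libraries, as was the case for 25.6% of all genes tested.

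**Figure D5:**
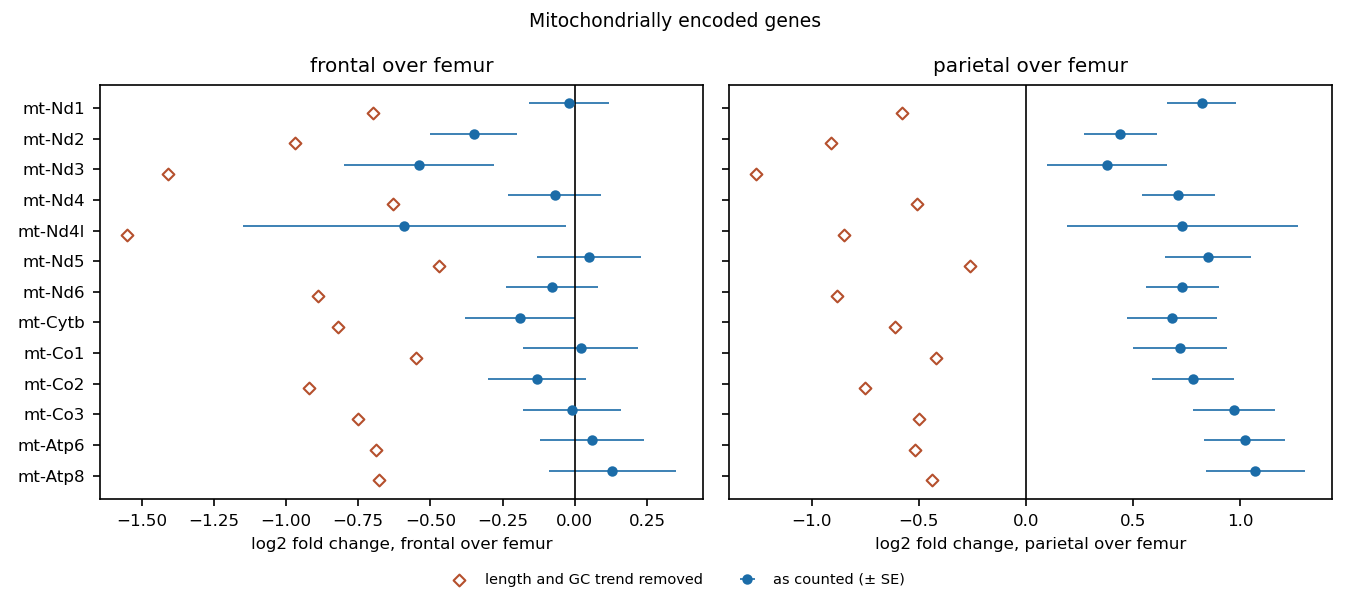
log2 fold change with its SE of the 13 mitochondrially encoded genes, frontal over femur (left) and parietal over femur (right), as counted (filled circles) and with the trend on exon length and GC content removed (open diamonds). As counted, frontal values run from -0.59 to 0.13 and parietal values from 0.38 to 1.07. With the trend removed all 13 lie below 0 in both bones.

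mt-Co3 (mitochondrial genome, 8607 to 9390) had 172, 200 and 150 CPM in frontal and 366 and 321 CPM in parietal libraries, against 219, 138 and 171 CPM in femur libraries. The frontal values fell within the femur range and the parietal values above it. Its log2 fold change was -0.01 ± 0.17 for frontal over femur (adjusted p = 0.965), 0.97 ± 0.19 for parietal over femur (adjusted p = 0.00109) and -0.98 ± 0.19 for frontal over parietal (adjusted p = 0.0281). mt-Cytb (14145 to 15288) had 1400, 1770 and 1250 CPM in frontal and 2880 and 2520 CPM in parietal libraries, against 2130, 1470 and 1450 CPM in femur libraries, and changed by 0.68 ± 0.21 for parietal over femur (adjusted p = 0.0145). mt-Nd1 (2751 to 3707), the core subunit at which coenzyme Q enters complex I, had 708, 814 and 671 CPM in frontal and 1360 and 1260 CPM in parietal libraries, against 876, 677 and 677 CPM in femur libraries. It changed by 0.82 ± 0.16 for parietal over femur (adjusted p = 0.00104).

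mt-Atp6, the a subunit of the synthase, had 92, 98.2 and 71.5 CPM in frontal and 183 and 156 CPM in parietal libraries, against 106, 72.7 and 72.9 CPM in femur libraries (1.02 ± 0.19 for parietal over femur, adjusted p = 0.000882). mt-Atp8 had 10.3, 13.6 and 10.1 CPM in frontal and 20.4 and 23.5 CPM in parietal libraries, against 13.4, 9.06 and 9.1 CPM in femur libraries. mt-Co1 had 1610, 1800 and 1350 CPM in frontal and 2820 and 2340 CPM in parietal libraries, against 1940, 1100 and 1650 CPM in femur libraries. In each of these 3 the frontal libraries overlapped the femur libraries and the parietal ones lay above both. The same held for mt-Co2, mt-Nd4, mt-Nd5 and mt-Nd6. For mt-Nd2 the 3 frontal values (280 to 320 CPM) lay below the femur values (329 to 472 CPM), which lay below the parietal ones (492 and 537 CPM), while mt-Nd3 and mt-Nd4l, at 7.86 to 20.5 CPM and 0.566 to 2.75 CPM over all libraries, had a femur library above the parietal ones.

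Within the mitochondrial messages, mt-Cytb took 26.2 to 30.6% and mt-Co1 took 23.0 to 31.1% of the summed counts of the 13 genes over the 8 libraries, and mt-Nd1 took 12.3 to 14.2%. mt-Nd2 took 5.11 to 5.89% in calvaria and 6.37 to 6.86% in femur, without overlap. The share of the low mt-Nd4l ran from 0.0118 to 0.0385%. Per kilobase of exon and averaged over the 8 libraries, the level was 1620 CPM for mt-Cytb, 1180 for mt-Co1 and 920 for mt-Nd1, against 449 for Cox8a, 415 for Cox6b1 and 413 for Cox6a1, the highest nuclear subunits on this scale. The ribosomal RNAs of the mitochondrion, which are no members, were lower in calvaria. Their log2 fold changes over femur were -0.68 for mt-Rnr1 (adjusted p = 0.00281) and -0.72 for mt-Rnr2 (adjusted p = 0.00236). In frontal bone alone they were -1.05 (adjusted p = 0.000463) and -1.08 (adjusted p = 0.000438). In parietal bone neither was called, at -0.32 (adjusted p = 0.192) and -0.36 (adjusted p = 0.156). Their counts were 0.545 ± 0.0678 of those of the 13 mRNAs in calvaria (SD, n = 5) and 1.11 ± 0.0495 in femur (SD, n = 3).

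Part of the mitochondrial genome has a nuclear copy on chromosome 1 (24612407 to 24615565, GRCm38), and reads of 37 bases cannot tell most of it apart. The copies of mt-Co2 (Gm28661), mt-Co3 (Gm28437), mt-Atp6 (Gm10925) and mt-Nd4l (Gm10222) had 0 mismatches over 681, 783, 678 and 294 bases, and the copy of mt-Nd3 (Gm28438) had 1 over 345 bases. That base is shown in capitals, as T3C counted from the first base of mt-Nd3, with the mitochondrial base first.
mt-Nd3: atTaacctgtacactgttatcttcatt
Gm28438: atCaacctgtacactgttatcttcatt
Summed over libraries, the copies held 0.896 (mt-Co2), 1.37 (mt-Co3), 1.51 (mt-Atp6), 5.44 (mt-Nd4l) and 0.586 (mt-Nd3) counts for each count of the mitochondrial gene. Reads of these stretches cannot be assigned to either place, so the levels of these 5 genes are uncertain. Of the other genes, mt-Nd4 and mt-Co1 share 62.6% and 59% of their 37-base stretches with another annotated gene (Gm28439 and Gm13340), so their levels, too, are uncertain, and in all 9 of the 13 share over 10%. With the copies' counts added to them, an alternative that was added once the data had been seen, the same numbers of the 13 genes were called, 5 in calvaria against femur and 10 in frontal against parietal bone.

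Genes that work beside the complexes were counted from lists of the pathway, to be read against the 29.6% higher and 31.4% lower of all genes tested. Of 35 tested assembly factors outside the member rule, 25 were higher and 2 lower in calvaria (median 0.79), with Pet100 (2.02 ± 0.18), a complex IV chaperone, and Uqcc2 (1.6 ± 0.13), which acts in the making of cytochrome b, at the smallest p. Of 14 citric acid cycle enzymes, 10 were higher and 1 lower (median 0.74), with Fh1, fumarase, at 1.68 ± 0.13 and Idh3a, a subunit of isocitrate dehydrogenase, at 1.1 ± 0.12. Of 13 genes of coenzyme Q synthesis, 6 were higher and 2 lower (median 0.31). Coq7, a hydroxylase of that pathway, changed by 1.39 ± 0.17, and Coq10b, a coenzyme Q binding protein, by -0.98 ± 0.12.

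Cytochrome c, encoded by Cycs, was higher by 0.53 ± 0.11 (adjusted p = 0.00146), a call that ended after removal of the length and GC trend (0.07, adjusted p = 0.57), and Cyc1, the cytochrome c1 of complex III, was not called (0.22, adjusted p = 0.0963), though it was with the trend removed (0.84, adjusted p = 0.000108). Of 3 tested carriers, the ADP and ATP carrier Slc25a4 was higher by 0.45 ± 0.14, a call lost without parietal library 2 (0.4, adjusted p = 0.0606) or femur library 2 (0.41, adjusted p = 0.0637) and on trend removal (0.23, adjusted p = 0.225). The phosphate carrier Slc25a3 was not called (-0.27, adjusted p = 0.0649), though it was without femur library 4 (-0.37, adjusted p = 0.0203) and on trend removal (-0.32, adjusted p = 0.0338). Among 4 tested modifiers of the chain and the synthase, Atpif1, the inhibitor of the ATP synthase, was higher by 2.21 ± 0.19 (adjusted p = 1.89e-06) and was the only one called in calvaria against femur.

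Of 19 tested regulators of mitochondrial gene expression, 3 were higher and 7 lower, with a median of -0.24. The share of lower calls is near that of all genes (31.4%). Pprc1, a coactivator related to PGC-1, changed by -2.14 ± 0.11 (adjusted p = 7e-08) and Polg, the DNA polymerase of the mitochondrion, by -1.63 ± 0.15 (adjusted p = 3.02e-06). Gabpa, whose motif was searched above, changed by -1.03 ± 0.18, Yy1 by -0.45 ± 0.15, and Nrf1 by 0.04 ± 0.11 (adjusted p = 0.741). These 3 were named for the motif search.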

How the data were processed

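Gene-level counts, whole numbers and not normalized, were deposited by the authors in a table of 43438 rows. It holds 43346 genes and 92 spike-in controls. Symbols were found for 42462 of the genes. A filtered copy of the counts and a scaled table were not used. Libraries were made from total RNA with the Nextera XT kit and read as 37-base paired ends, per the labels' protocols. The submitters' processing notes list the builds mm10 and GRCm38.p3 and the tools edgeR, limma, DESeq2 and STAR 2.5.2a. How reads were counted, whether by strand, and on which annotation is not given in the sources used here. Reads of overlapping or antisense genes therefore cannot be separated. Positions, exon lengths and GC content are from GENCODE M21.

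Spike-ins (0.0286 to 0.176% of counts) were left out. Counts of 8 libraries were fitted with edgeR 4.0.16 in R 4.3.3 (filterByExpr, TMM, robust quasi-likelihood, 3 bones as groups, 5 residual degrees of freedom, biological coefficient of variation 18.6%). Contrasts were calvaria (mean of frontal and parietal) against femur, each calvarial bone against femur, and frontal against parietal. CPM values are on the TMM scale, and SE is the fold change divided by the root of F. Between replicates of a bone the chi-square of the counts was 7.16 to 35 times its degrees of freedom, above sampling noise. Tested on simulated counts for calvaria against femur (15270 genes), the fit recovered 82% of genes changed by 1 and 100% of those changed by 2 on the log2 scale. The simulation changed a small set of genes, none of low count, with as many up as down, whereas 61.0% of all genes were called in the data. These percentages are therefore not the power of the real test. Other settings were other scalings (RLE, library size, upper quartile), no filter, DESeq2 1.42.0, limma-voom (limma 3.58.1), a smooth length and GC trend removed (mgcv 1.9.3), replicate numbers as a block, and each library left out.

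The members and lists were chosen with earlier results of these data known. Genes named in full were the mitochondrially encoded genes, the isoforms, the 2 called nuclear subunits of each complex and the 2 called assembly factors with the largest and the smallest change, subunits called against the majority, the 10 subunits with the smallest p between frontal and parietal bone, and 2 genes by p of each list. Members named beyond this rule (Atp5a1, Atp5b, Atp5c1, Atp5d, Atp5e, Uqcrc1, Ndufaf2, Ndufaf4, Sdhaf1, the untested Cox7b2 and Cox8c, and, for lost calls or changes of sign, Cox5a, Cox7c, Ndufa1, Ndufaf1 and Uqcrb) were chosen after their values were seen. One gene of the modifier list, Aox1, encodes an aldehyde oxidase in mouse and was not read as a modifier. Members not named in the text enter only its counts and medians.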

Additional observations from a re-analysis of the deposited data

Results flagged for a closer look

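The frontal and the parietal effect against femur differed by the direct test between these bones for 10 of the 13 mitochondrially encoded genes, all lower in frontal than in parietal bone. Of all genes tested, 3.29% were called lower and 3.91% higher in frontal than in parietal bone. The same direct test called 18 of the 81 tested nuclear subunits, again all lower in frontal bone. Both counts fell to 0 when certain single libraries were left out, as given in the next part.

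Signal also lay in a gene outside the members. The chromosome 1 copy Gm28437, identical to mt-Co3 over 783 bases, had a mean of 329 CPM in calvaria, and 1.37 counts for each count of mt-Co3 over the 8 libraries, and its reads cannot be assigned to either place.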

How the results depend on the processing

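The counts of nuclear subunits called against femur kept within 1.5 times their value under all 18 alternatives. In calvaria 66 subunits were higher and 2 lower under every one of them, in frontal bone 64 and 2, and in parietal bone 66 and 2. The lower ones were Cox4i2 and Ndufa4l2, of which Ndufa4l2 had to differ by the filter. Of the assembly factors 8, 5 and 7 were higher under every alternative, and of the mitochondrially encoded genes none. Cox5a, Cox7a1, Ndufa1, Ndufb6, Uqcrb, Uqcrfs1, Uqcrh and Usmg5 lost their calvarial call in at least 1 alternative. Depth limits Cox7a1, Ndufa4l2 and mt-Nd4l, which had few counts. Adding the counts of the chromosome 1 copies was chosen after seeing the data. Scaling by library size moved the median log2 fold change of all genes, calvaria over femur, to 0.11, and upper-quartile scaling to 0.19. With library size only, 773 of 1022 genes called between frontal and parietal bone were higher in frontal, against 607 of 1118 in the main result. Where a call changed, the cause was not tested.

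The 5 mitochondrially encoded genes called in calvaria became 9 with library size only, 10 with upper-quartile scaling, 9 with no filter, and 12 (all lower) with the length and GC trend removed, and ran from 0 to 10 with a library left out (0 without femur library 2 or 4, 1 without parietal library 2, 2 without parietal library 4, 10 without femur library 1). For frontal against femur 13 were called (all lower) with the trend removed, and 0 to 2 with a library left out (1 lower without femur library 2, 2 lower without femur library 4). For parietal against femur 7 were called (all lower) with the trend removed, and 4 to 13 with a library left out (4 without parietal library 2). For frontal against parietal 0 were called with the trend removed, and 0 to 12 with a library left out.

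The 18 nuclear subunits called between frontal and parietal bone became 11 with library size only, 36 with DESeq2 (1 higher) and 3 with the trend removed, and ran from 0 to 26 with a library left out. Assembly factors called between these bones were 1 with upper-quartile scaling, 4 with DESeq2, 3 with limma-voom, and 0 to 1 with a library left out. Of all genes, 7.89, 14.3 and 10.2% were called between frontal and parietal bone with upper-quartile scaling, DESeq2 and limma-voom. Assembly factors called in frontal against femur were 6 with the trend removed, where 26.9% of all genes were called higher and 28.3% lower.

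Whether libraries of the same number were paired could not be decided. The correlation of deviations from group means was -0.1 to 0.15 over the 7 same-numbered pairs, and not every library correlated best with its own number. The deviations of the parietal libraries mirror each other, and all group means rest on few libraries. These correlations therefore cannot exclude that libraries of the same number were paired. With the replicate block, mitochondrially encoded genes called were 8 in calvaria and 0 in frontal against parietal bone, and nuclear subunits called between frontal and parietal bone were 0, as were all genes. With the block and the trend removal together, mitochondrially encoded genes called were 10, 12 and 5 (all lower) in calvaria, frontal and parietal against femur and 0 in frontal against parietal bone. Nuclear subunits called there were 0, and assembly factors called were 6 in frontal and 7 in parietal bone against femur.

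Among the genes named by the rule, a sign reversed with a call on either side only with the length and GC trend removed, alone or with the replicate block. Alone and with the block, in calvaria against femur, the log2 values were -0.34 and -0.34 for Atp5g3, -0.06 and -0.08 for Ndufb6, -0.61 and -0.56 for mt-Atp6, -0.56 and -0.54 for mt-Atp8, -0.84 and -0.78 for mt-Co2, -0.63 and -0.59 for mt-Co3, -0.71 and -0.67 for mt-Cytb, -0.64 and -0.61 for mt-Nd1, -0.94 and -0.88 for mt-Nd2, -0.57 and -0.51 for mt-Nd4, -0.37 and -0.33 for mt-Nd5 and -0.89 and -0.85 for mt-Nd6. Without the block they were -0.48 for mt-Co1 and -1.2 for mt-Nd4l. In frontal against femur they were -0.69 and -0.71 for mt-Atp6, -0.68 and -0.68 for mt-Atp8 and -0.47 and -0.48 for mt-Nd5, with -0.55 for mt-Co1 without the block. In parietal against femur they were -0.52 and -0.4 for mt-Atp6, -0.44 and -0.4 for mt-Atp8, -0.42 and -0.31 for mt-Co1, -0.75 and -0.63 for mt-Co2, -0.5 and -0.41 for mt-Co3, -0.61 and -0.51 for mt-Cytb, -0.58 and -0.51 for mt-Nd1, -0.91 and -0.8 for mt-Nd2, -1.26 and -1.04 for mt-Nd3, -0.51 and -0.4 for mt-Nd4, -0.26 and -0.18 for mt-Nd5 and -0.88 and -0.78 for mt-Nd6. Other called members whose sign changed with the trend removed alone were Ndufa1 (-0.08) and Cox5a (-0.06) in calvaria, Ndufa1 (-0.18) and Ndufb6 (-0.13) in frontal and Cox5a (-0.28) and Ndufaf1 (-0.03) in parietal bone against femur, and Uqcrb (0.05) and Cox7c (0.19) in frontal against parietal bone. Members called on neither side changed sign in 2 cases in calvaria, 3 in frontal and 4 in parietal bone against femur, and 7 in frontal against parietal bone.

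Over single genes and shares, 2378 values kept direction and side of the threshold, 204 lost a call, 77 gained one, and 6 values without a test moved beyond their spread. These 6 were the log2 ratios of Cox6a2 (0.96 with a pseudocount of 1 CPM), Cox7a1 (-0.64 and -0.12) and Ndufa4l2 (-4.58 with 0.1 CPM) to their partners, and the shares of nuclear subunits (1.84%) and assembly factors (0.0423%) without marker counts in the totals.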
